A study of Mus musculus with 24 samples.

Results

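The mouse mitochondrial genome carries 13 protein genes and 22 tRNA genes besides its ribosomal RNA genes, and these 35 genes are the subject here. They were taken by symbol, as every gene whose name begins with mt- except mt-Rnr1 and mt-Rnr2, from the 55487 genes listed in the gastrocnemius tables. Of the 35 genes, the 13 protein genes passed a filter on low values and were tested among 14690 genes, and the 22 tRNA genes did not pass it. Poly-adenylated RNA of the gastrocnemius, a calf muscle of mostly fast fibres, had been sequenced from 24 male C57BL/6J mice, 1 library per mouse, in 3 groups of 8. The mice were obtained at 10 weeks of age and are labelled 12 weeks old, and all of them had 2 intraperitoneal injections a day for 8 days. The uncasted group received sterile water and no cast. The casted group received water while casting material on both hindlimbs held them still for 8 days, and the casted group with MOTS-c received MOTS-c at 15 mg/kg/day under the same casting. MOTS-c is a peptide encoded within a mitochondrial ribosomal RNA gene. No group received MOTS-c without a cast.

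Both strands of the mitochondrial genome are transcribed as long precursors that run over many genes. The tRNAs lie between most of the protein genes, and their excision releases mRNAs, most of which then receive a short poly-A tail. The encoded proteins are core subunits of the respiratory chain complexes I, III and IV and of ATP synthase, which is also called complex V. Muscle fibres depend on these complexes for oxidative ATP synthesis, and inactivity of a muscle is known to lower its oxidative capacity.

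By complex, 7 of the 13 protein genes belong to complex I (mt-Nd1, mt-Nd2, mt-Nd3, mt-Nd4, mt-Nd4l, mt-Nd5 and mt-Nd6), 1 to complex III (mt-Cytb), 3 to complex IV (mt-Co1, mt-Co2 and mt-Co3) and 2 to complex V (mt-Atp6 and mt-Atp8). In the annotation of the genome build GRCm38, 12 of them read on the plus strand and only mt-Nd6 on the minus strand. Of the tRNA genes, 14 read on the plus strand and 8 on the minus strand. Adjacent protein genes share more than 1 base in 3 places, and mt-Atp6 also ends on the base where mt-Co3 starts (chrM:8607). The 3 longer stretches are shown. In the sequences that follow, read from the GENCODE annotation of GRCm38 and given 5′ to 3′, the capitals mark the shared bases, because values of genes that share bases cannot be fully separated. The first is the whole of mt-Atp8 (chrM:7766-7969, plus strand), whose last 43 bases are the start of mt-Atp6. The second is the end of mt-Nd4l (chrM:10114-10173, plus strand), whose last 7 bases begin mt-Nd4. In both of these pairs no tRNA gene lies between the genes, and the genes of a pair lie on 1 shared transcript. The word mRNA is used here for each protein gene separately. The last are the ends of mt-Nd5 (chrM:13506-13565, plus strand) and mt-Nd6 (chrM:13552-13611, minus strand), which meet tail to tail, so that their final 14 bases are reverse complements of each other.
mt-Atp8: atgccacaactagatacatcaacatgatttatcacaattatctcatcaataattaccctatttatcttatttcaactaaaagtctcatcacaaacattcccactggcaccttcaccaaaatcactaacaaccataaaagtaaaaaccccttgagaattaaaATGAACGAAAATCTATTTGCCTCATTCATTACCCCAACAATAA
mt-Nd4l: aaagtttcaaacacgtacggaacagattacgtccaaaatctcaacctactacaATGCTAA
mt-Nd5: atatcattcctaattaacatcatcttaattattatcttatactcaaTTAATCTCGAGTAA
mt-Nd6: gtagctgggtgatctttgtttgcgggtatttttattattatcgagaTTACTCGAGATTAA

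The values are TPM, which give a gene's share of a library corrected for transcript length. They were put on 1 scale across libraries by a trimmed mean of gene-wise log ratios, and are called scaled TPM. Read totals cannot be had from TPM, so depth is unknown and values carry no counting interval. The libraries held 19832 to 21755 genes with a TPM above 0. All 8 muscle fibre markers examined were present in every group. Their summed scaled TPM was 117937 to 135368 in the uncasted, 53734 to 83141 in the casted and 57560 to 100261 in the MOTS-c libraries. The summed macrophage markers were 16.4 to 23.1, 29.1 to 82.5 and 31.5 to 85.4 in the same order. The median sums of the endothelial and fibroblast markers were 77.6 and 524 in uncasted, 58.7 and 389 in casted and 65.5 and 470.4 in MOTS-c libraries. Those of the adipocyte markers were 17.0 (9.16 to 19.5), 17.2 (14.2 to 24.6) and 28.9 (18.6 to 33.9) in the same order, higher with MOTS-c than in both other groups. In bulk muscle, fewer cells of a type and less RNA per cell cannot be told apart, and the part of these shifts in the results was not tested.

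All 22 mitochondrial tRNAs were listed at exactly 0 in all 24 libraries, so no tRNA, complex or strand comparison could be made from them. The tRNA genes were 59 to 75 bases long. The shortest and the longest are shown because every gene of their size class behaved alike in these tables: mt-Ts2 (chrM:11613-11671, plus strand), a serine tRNA, and mt-Tl1 (chrM:2676-2750, plus strand), a leucine tRNA.
mt-Ts2: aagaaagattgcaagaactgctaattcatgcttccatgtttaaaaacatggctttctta
mt-Tl1: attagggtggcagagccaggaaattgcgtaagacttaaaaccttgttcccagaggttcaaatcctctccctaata
Of 1026 genes in the annotation whose longest transcript was 75 bases or shorter, 0 were above 0 in any library. The shortest gene above 0 anywhere was the predicted gene Gm25789, at 76 bases. Of 1421 genes of 76 to 100 bases, 104 (7.32%) were above 0 in at least 1 library. A listed 0 can be a failed estimate, and it was not read as absence of a tRNA.

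In uncasted muscle, mt-Co1, which encodes the catalytic subunit of cytochrome c oxidase, had the highest listed level of the 13 mRNAs and mt-Nd6 the lowest. The levels are scaled TPM, which are corrected for length. Comparison between genes is limited by the near-copies described next. For short genes such as mt-Atp8 and mt-Nd4l it also rests on a length correction whose details are not known here. Whether poly-A selection captured all 13 alike is not known either. mt-Co1 stood at 60049 ± 3972 scaled TPM (SD, n = 8) and its 8 libraries did not overlap those of any other mRNA. A second tier held mt-Cytb, the cytochrome b of complex III, at 38795 ± 3061, mt-Nd1 at 37814 ± 3606, mt-Nd4 at 34765 ± 2390 and mt-Nd2 at 29870.2 ± 2423, and neighbours in this order overlapped. mt-Nd5, mt-Atp8 and mt-Nd4l followed at 15206 ± 1627, 15078 ± 1962 and 11800 ± 1997, again overlapping with their neighbours but not with the tiers above and beneath. The lowest tier ran from mt-Atp6 at 4822 ± 555 through mt-Co2 at 4583 ± 553, mt-Co3 at 3687 ± 915 and mt-Nd3 at 3045 ± 416 to mt-Nd6 at 2057 ± 303, with overlap at every step. The plot of all 24 libraries shows these tiers. In casted libraries only the step from mt-Nd2 to mt-Nd5 was free of overlap, and in MOTS-c libraries only that from mt-Nd4l to mt-Co2.

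**Figure D1:**
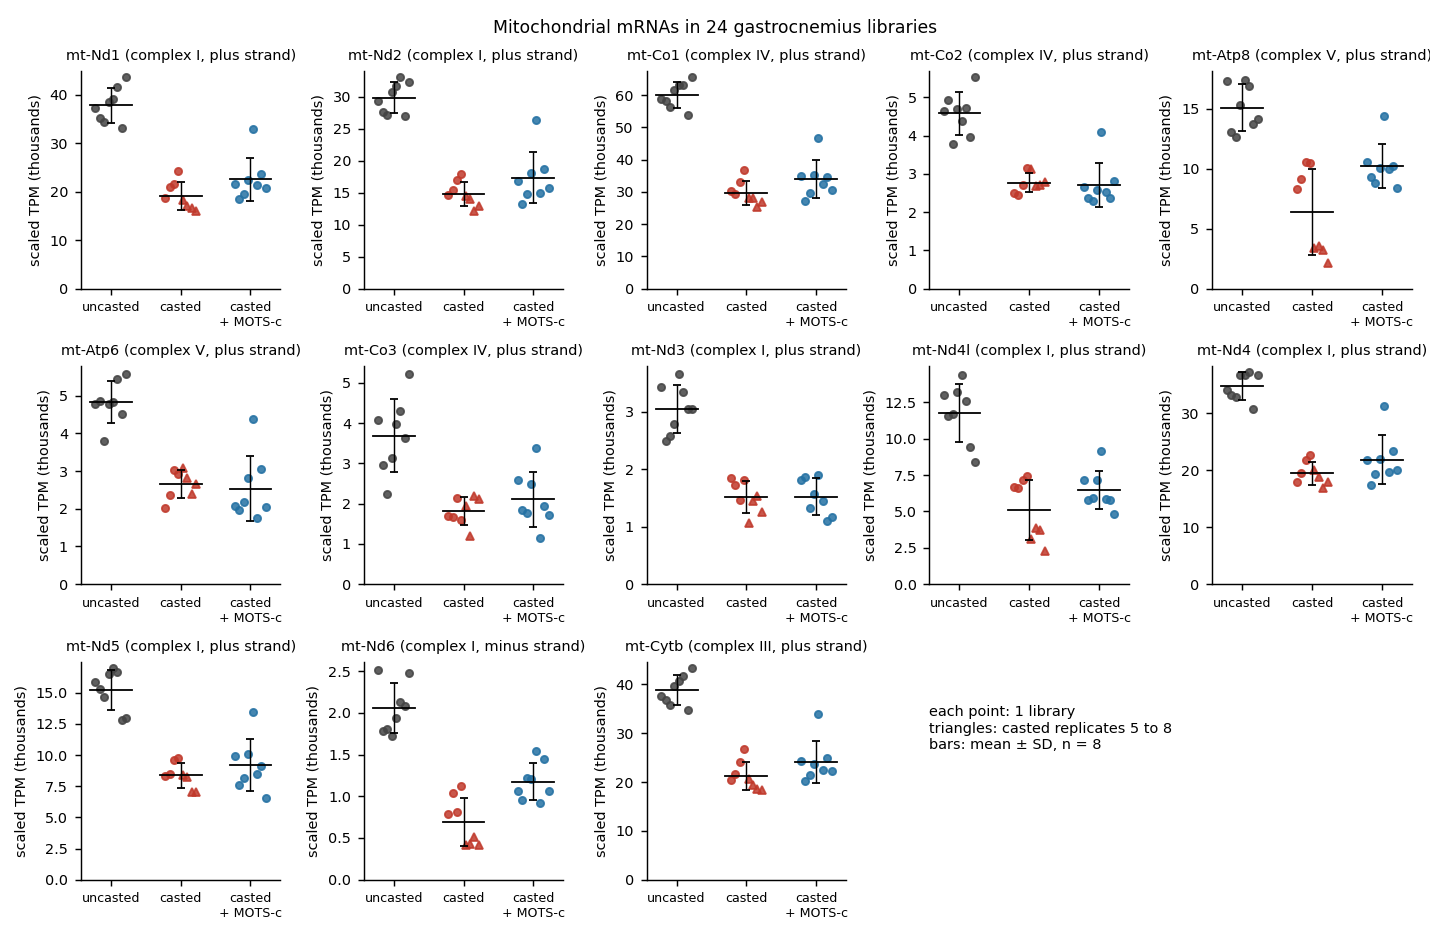
Scaled TPM (axes in units of 1000, linear from 0) of the 13 mitochondrial mRNAs in each of 24 libraries, with the mean and SD of each group of 8; triangles are casted replicates 5 to 8. Every casted library lies beneath every uncasted library in all 13 panels, and in mt-Atp8, mt-Nd4l and mt-Nd6 the triangles form a separate low set.

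The low listed level of 4 of these mRNAs went together with near-identical copies in the nuclear genome. Of 16 nuclear genes found as near-copies of mitochondrial genes (at least 90% identity over at least 80% of the copy), 7 lay side by side on the minus strand of chromosome 1, within chr1:24611535-24616197. In the annotation this stretch repeats the mitochondrial genome from inside mt-Co1 to inside mt-Nd4. The copy of mt-Atp6, named Gm10925, was identical over 678 of the 681 bases of the mitochondrial gene, that of mt-Co2 (Gm28661) over 681 of 684 and that of mt-Co3 (Gm28437) over 783 of 784. The copy of mt-Nd4l (Gm10222) matched over 294 of 297 bases, that of mt-Nd4 (Gm28439) over its first 876 and that of mt-Co1 (Gm29216) over its last 479. In the copy of mt-Nd3, Gm28438, 1 base differed, T3C, where positions count from 1 at the gene's first base, the first letter is the mitochondrial base and the last the nuclear one. The first 40 bases of both are given to show how little sets them apart, mt-Nd3 at chrM:9459-9498 on the plus strand and Gm28438 at chr1:24613080-24613119 on the minus strand, with the differing base in capitals.
mt-Nd3: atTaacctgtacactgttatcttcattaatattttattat
Gm28438: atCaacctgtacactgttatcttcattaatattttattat

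Most of the TPM of these pairs was listed under the nuclear copy. In uncasted libraries the copy held 94.5 ± 0.38% of the sum for mt-Atp6 (SD, n = 8), 92.8 ± 1.15% for mt-Co3, 91.3 ± 0.72% for mt-Co2 and 75.4 ± 2.70% for mt-Nd3. For the genes copied in part the shares were 30.8 ± 1.31% for mt-Co1 and 19.6 ± 0.81% for mt-Nd4, and for mt-Nd4l 1.89 ± 3.52%. The sources used here do not give how reads were divided between a gene and its copy, so the listed levels of these 7 mRNAs are uncertain. With the copies added, mt-Atp6 stood highest together with mt-Co1 in uncasted muscle, at 87853 ± 9253 and 86857 ± 6829 scaled TPM, and mt-Co2 and mt-Co3 rose in the order to 52643 ± 5068 and 50588 ± 6227. The chromosome 1 stretch holds no annotated copy of mt-Nd1, mt-Nd2, mt-Nd5, mt-Nd6 or mt-Cytb. For mt-Atp8 it holds no separately annotated copy, but Gm10925 includes the last 43 bases of mt-Atp8, which are shared with mt-Atp6. Whether the bases between Gm10925 and Gm28661 repeat the rest of mt-Atp8 was not examined. The listed level of mt-Atp8 is therefore not free of the copy problem. Copies found elsewhere in the nuclear genome added little to these mRNAs, and mt-Nd2 went from 29870.2 to 29870.7 scaled TPM with them.

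**Figure D2:**
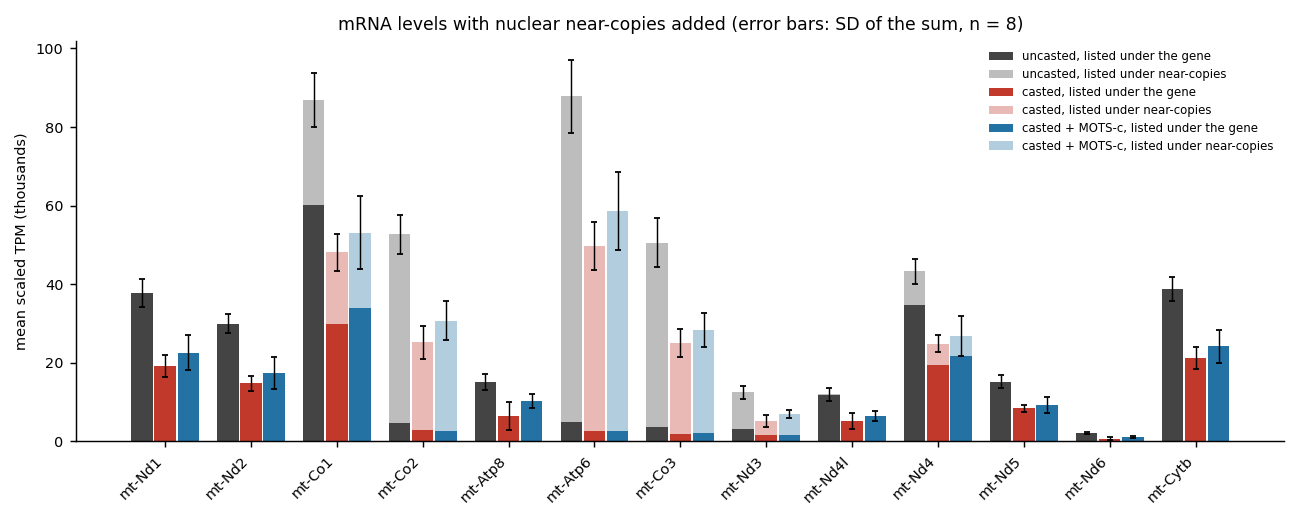
Mean scaled TPM (axis in units of 1000, bars from 0) listed under each mitochondrial gene (full colour) and under its nuclear near-copies (pale), by group; error bars are the SD of the sum over 8 libraries. For mt-Co2, mt-Atp6, mt-Co3 and mt-Nd3 the pale part is the larger one, and with it mt-Atp6 reaches 87853 in uncasted muscle.

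Water-injected casted and uncasted mice were compared first. All 13 mRNAs fell with 8 days of casting, whichever complex they belong to. The median change was -1.004 on the log2 scale, a change of log2(scaled TPM + 1), beside 0.01 over all 14690 genes tested. In limma's linear model with p-values adjusted by the Benjamini-Hochberg method over all genes and a threshold of 0.05, 13 of 13 were called lower, where 27.7% of all tested genes were called lower and 28.7% higher. The casted and uncasted libraries did not overlap in any of the 13, against 10.9% of all tested genes that were lower without overlap.

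The 7 mRNAs of complex I had a median of -1.02 and ranged from -1.67 to -0.84, the 3 of complex IV had a median of -1.004 and ranged from -1.02 to -0.72, and mt-Cytb of complex III fell by 0.88 on the log2 scale. The 2 mRNAs of complex V stood at -1.47 for mt-Atp8 and -0.86 for mt-Atp6. Complex I took 51.4 ± 0.73% of the summed TPM of the 13 mRNAs without casts, 51.7 ± 0.61% with casts and 51.4 ± 0.49% with casts and MOTS-c (SD, n = 8). That of complex IV was 26.1 ± 0.64%, 25.8 ± 1.38% and 24.9 ± 0.50%, and that of complex III 14.8 ± 0.35%, 15.9 ± 0.47% and 15.5 ± 0.37%. Complex V took 7.60 ± 0.53%, 6.55 ± 1.81% and 8.18 ± 0.35%, with the widest spread in the casted group. With near-copies added complex IV was the largest, at 39.2 ± 0.79%, 38.8 ± 1.18% and 38.0 ± 0.53%, followed by complex I at 31.5 ± 0.83%, 30.8 ± 0.68% and 30.6 ± 0.95%, while complex III took 8.01 ± 0.13%, 8.36 ± 0.15% and 8.17 ± 0.17%. The shares of complex V were then 21.2 ± 0.51%, 22.1 ± 0.75% and 23.3 ± 0.95%, so the order of the uncasted and casted groups turned. These shares were described and not tested.

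mt-Co1 ranged from 53796 through a median of 60151 to 65578 scaled TPM in uncasted libraries and from 25331 through 28832 to 36925 in casted ones. The 2 sets were far apart. The log2 change was -1.02 ± 0.11 (SE, limma adjusted p = 2.04e-08). mt-Cytb ranged from 34717 through 38682 to 43387 in uncasted and from 18446 through 20453 to 26765 in casted libraries, also without overlap (-0.88 ± 0.10, limma adjusted p = 1.62e-07). Among the complex I mRNAs of high level, mt-Nd1 changed by -0.99, mt-Nd2 by -1.02, mt-Nd4 by -0.84 and mt-Nd5 by -0.86, each with a standard error between 0.10 and 0.12. The smallest fall was that of mt-Co2, which encodes the subunit that takes electrons from cytochrome c, at -0.72 ± 0.10 (limma adjusted p = 1.52e-06). With its near-copy added the fall of mt-Co2 was -1.07, and that of mt-Nd3 went from -1.02 to -1.33, while those of mt-Co1, mt-Co3, mt-Atp6, mt-Nd4 and mt-Nd4l lay between -1.34 and -0.80. All 13 remained called with the copies added.

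Over all 8 casted libraries, the 3 largest falls were those of mt-Nd6, mt-Atp8 and mt-Nd4l. mt-Nd6, which encodes a membrane subunit of complex I, ranged from 1729 through 2012 to 2508 scaled TPM in uncasted and from 411 through 652 to 1125 in casted libraries. The lowest uncasted library stood above the highest casted one, and the casted libraries were widely spread. Its change was -1.67 ± 0.19 (limma adjusted p = 6.77e-08). mt-Atp8, a small subunit of the membrane part of ATP synthase, ranged from 12625 through 14746 to 17428 and from 2158 through 5948 to 10589.8 scaled TPM, with a change of -1.47 ± 0.26 (limma adjusted p = 3.77e-05). The casted libraries of mt-Atp8 fell into a high and a low set with a gap between them. mt-Nd4l, another membrane subunit of complex I, ranged from 8427 through 12163 to 14383 in uncasted and from 2266 through 5231 to 7452 in casted libraries, with a change of -1.31 ± 0.21 (limma adjusted p = 7.75e-06).

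On the TPM as deposited, without scaling between libraries, the falls were smaller, and the median of all genes moved up by 0.39 with casting. All 13 were still called lower there, where 7.43% of all genes were called lower and 62.2% higher. The changes ranged from -1.16 for mt-Nd6 to -0.21 for mt-Co2. Of all deposited TPM, the 13 mRNAs took 20.9 ± 0.76% in the uncasted group, 15.2 ± 1.23% in the casted group and 16.8 ± 1.61% with MOTS-c (SD, n = 8). With near-copies added these shares were 38.7 ± 1.4%, 29.0 ± 1.99% and 31.8 ± 2.40%.

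**Figure D3:**
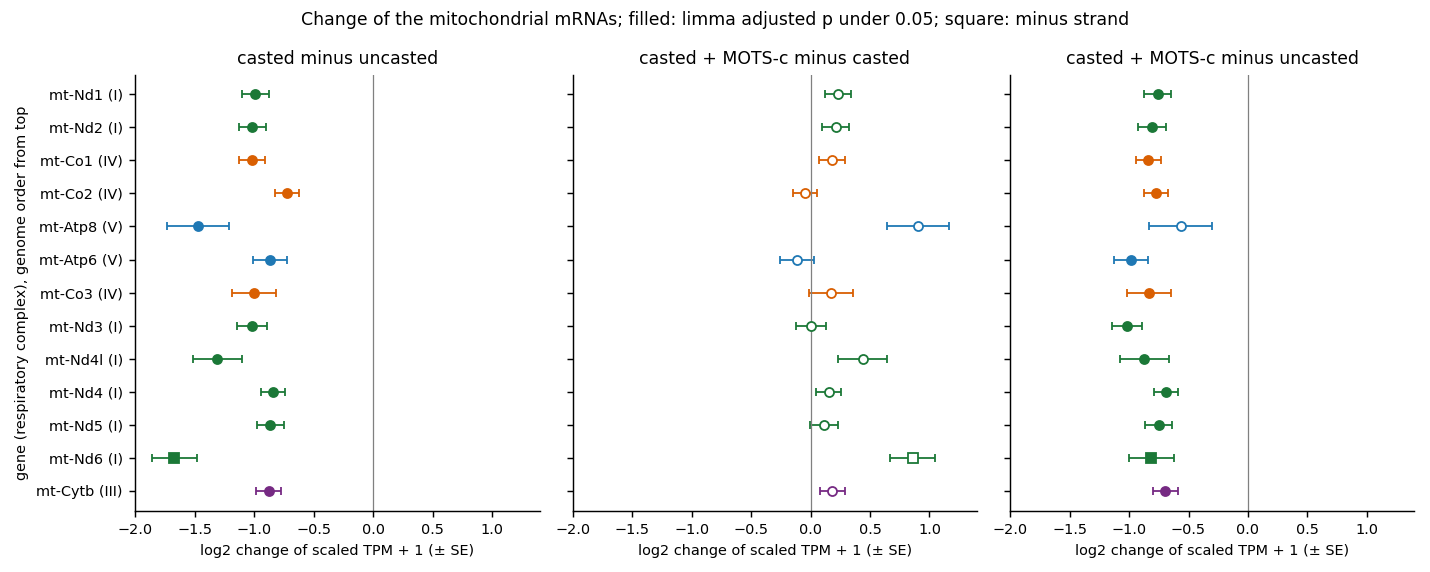
Log2 change of scaled TPM + 1 with its standard error for the 13 mRNAs in the 3 comparisons, in genome order from the top and coloured by complex; squares mark the minus strand and filled symbols a limma adjusted p under the threshold. With casting every symbol is filled and left of 0; with MOTS-c against casting alone all are open, and mt-Atp8 at 0.91 and mt-Nd6 at 0.86 lie farthest to the right.

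Within the casted group, the libraries labelled replicates 1 to 4 and those labelled replicates 5 to 8 differed most for mt-Atp8, mt-Nd4l and mt-Nd6. The labels do not say what sets these replicates apart, and the split was made with the values known, so it is a description with no test. mt-Atp8 ranged from 8329 to 10589.8 scaled TPM in replicates 1 to 4 and from 2158 to 3567 in replicates 5 to 8. mt-Nd4l ranged from 6603 to 7452 and from 2266 to 3860, and mt-Nd6 from 790.1 to 1125 and from 411 to 514. In all 3 the sets did not overlap. They did not overlap for mt-Nd1, mt-Nd2 and mt-Co1 either, with smaller log2 differences of -0.32, -0.28 and -0.25. With near-copies added the sets of mt-Co2, mt-Co3 and mt-Nd3 were also free of overlap, while those of mt-Co1 overlapped. The mean log2 value was lower in replicates 5 to 8 by 1.66 for mt-Atp8, 1.14 for mt-Nd4l and 1.08 for mt-Nd6 (differences of -1.66, -1.14 and -1.08). For the other 10 mRNAs the difference lay between -0.38 (mt-Nd3) and 0.09 (mt-Atp6), and with near-copies added that of mt-Nd3 was -0.79 and that of mt-Co2 -0.40.

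The mRNAs with the largest differences between these casted libraries were the shortest ones. mt-Atp8 has 204 bases, mt-Nd4l 297, mt-Nd3 348 and mt-Nd6 519, while the other 9 have 681 to 1824 bases. Nuclear genes of the same lengths did not show it in their medians. The median difference was -0.08 over 122 tested nuclear genes of up to 200 bases, -0.12 over 99 of 200 to 300 bases, -0.15 over 456 of 300 to 520 bases and 0.02 over 10263 longer than 2000 bases. Short nuclear genes did spread widely, and the lowest 5% of the genes of 200 to 300 bases were at or under -1.65. The summed muscle fibre markers were 64612 to 83141 scaled TPM in casted replicates 1 to 4 and 53734 to 71320.3 in replicates 5 to 8, with overlap. The part of transcript length or of these markers in the difference was not tested.

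**Figure D4:**
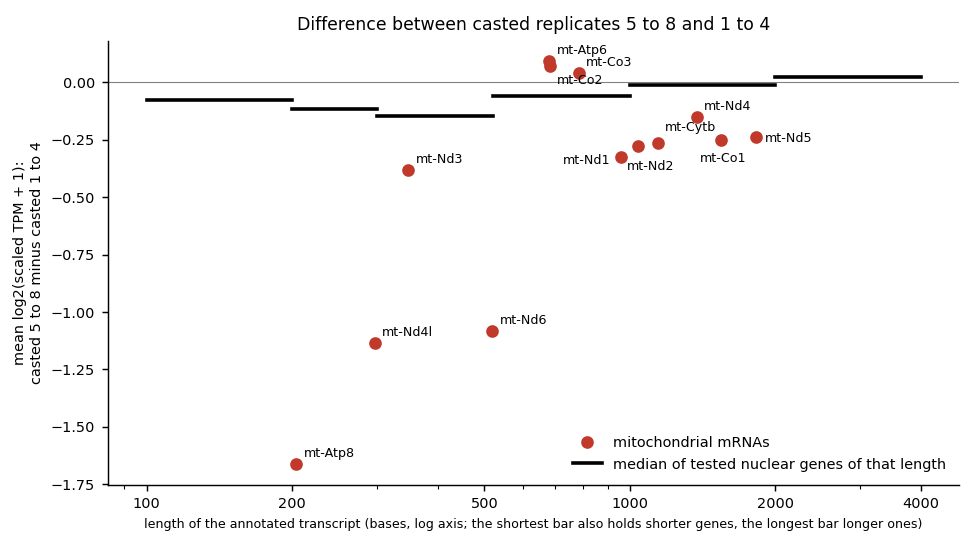
Difference of mean log2(scaled TPM + 1) between casted replicates 5 to 8 and casted replicates 1 to 4 against transcript length (bases, log axis), for the 13 mitochondrial mRNAs (points) and as medians of tested nuclear genes by length (bars). mt-Atp8 (-1.66), mt-Nd4l (-1.14) and mt-Nd6 (-1.08) lie far under the bars of nuclear genes of like length.

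Fitted with casted replicates 1 to 4 alone, the falls were -1.13 for mt-Nd6, -0.64 for mt-Atp8 and -0.74 for mt-Nd4l, and with only casted replicates 5 to 8 they were -2.21, -2.30 and -1.88. All 13 estimates were under 0 in both. For each of these 3 mRNAs the falls in the 2 fits differed by more than 1.5 times. With replicates 1 to 4 alone mt-Nd6 still had the largest fall, but mt-Atp8 and mt-Nd4l had the 2 smallest of the 13, and mt-Co3 (-1.02), mt-Atp6 (-0.91) and mt-Co1 (-0.89) followed mt-Nd6.

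The second question was whether mRNAs of both strands changed equally. A ratio of 2 mRNAs within a library does not depend on the scaling between libraries. The log2 ratio of mt-Nd6, the minus strand mRNA, to each of the 12 plus strand mRNAs was therefore compared between groups with two-sided exact permutation tests over 12870 splits, together with the ratios of mt-Nd4l to mt-Nd4 and of mt-Atp8 to mt-Atp6. P-values were adjusted over these 14 ratios and the 3 comparisons. The 12 ratios of mt-Nd6 share 1 numerator and are not independent of each other. Nothing in the sources used here says that the libraries keep strand, and without strand the reads of mt-Nd6 and of transcripts that cross it on the other strand cannot be told apart. Poly-adenylated RNA was sequenced, and whether mt-Nd6 was captured as well as the other mRNAs was not tested.

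With casting, the estimated fall of mt-Nd6 was larger than that of every plus strand mRNA, and 10 of the 12 ratios passed the threshold. The log2 ratio of mt-Nd6 to mt-Cytb, its neighbour beyond a tRNA gene, ranged from -4.52 through -4.30 to -3.91 in uncasted and from -5.64 through -5.03 to -4.38 in casted libraries. All casted libraries but 1 lay under the lowest uncasted one. The means differed by -0.80 (exact permutation p = 0.000466, adjusted p = 0.00816). Against mt-Nd5, which overlaps mt-Nd6, the difference was -0.81 (exact permutation adjusted p = 0.00816), and over the 10 ratios past the threshold it ranged from -0.95 (mt-Co2) to -0.65 (mt-Co1). With near-copies added the range over the 10 that passed was -0.87 (mt-Nd4) to -0.35 (mt-Nd3), and that to mt-Co2 was -0.60. The ratio of mt-Nd6 to mt-Atp8 did not pass (-0.20, exact permutation adjusted p = 0.313), nor did that to mt-Nd4l (-0.36, exact permutation adjusted p = 0.0713). These are the 2 other mRNAs that differed most between the 2 sets of casted replicates.

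The size of this difference varied within the casted group. For mt-Nd6 to mt-Cytb it was -0.39 with only casted replicates 1 to 4 and -1.20 with only replicates 5 to 8, given as descriptions with no test. The minus strand is represented by 1 mRNA, so a strand and a property of that mRNA cannot be told apart.

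**Figure D5:**
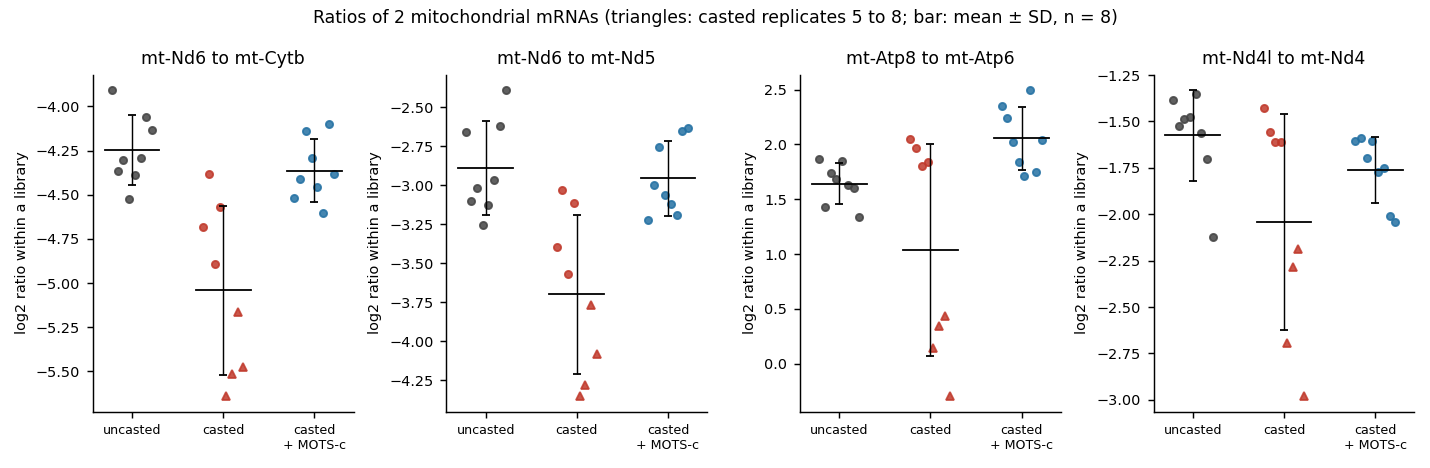
Log2 ratio of 2 mitochondrial mRNAs within each of 24 libraries, for mt-Nd6 to mt-Cytb, mt-Nd6 to mt-Nd5, mt-Atp8 to mt-Atp6 and mt-Nd4l to mt-Nd4, with the mean and SD of each group of 8; triangles are casted replicates 5 to 8. In each panel the triangles are the 4 lowest of the 24 libraries, at -5.17 or under for mt-Nd6 to mt-Cytb and at 0.44 or under for mt-Atp8 to mt-Atp6.

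The tested ratios of genes that share bases on 1 strand did not pass with casting. Each compares parts of 1 shared transcript. The log2 ratio of mt-Atp8 to mt-Atp6 ranged from 1.34 through 1.66 to 1.86 in uncasted and from -0.30 through 1.12 to 2.05 in casted libraries (difference -0.61, exact permutation adjusted p = 0.136). Casted replicates 1 to 4 stood at 1.80 to 2.05 and replicates 5 to 8 at -0.30 to 0.44, on either side of the uncasted mean of 1.64. The ratio of mt-Nd4l to mt-Nd4 gave a difference of -0.47 (exact permutation adjusted p = 0.0725), with -2.98 to -2.19 in casted replicates 5 to 8 and -1.61 to -1.43 in replicates 1 to 4. With only casted replicates 1 to 4 both differences changed sign, to 0.27 and 0.02.

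The next comparison asks what MOTS-c did in casted mice. It shares the casted libraries with the casting comparison, so a low casted value lowers one and raises the other. Of the 13 mRNAs, 0 were called with limma, where 0.0204% of the 14690 genes were called in either direction, and 3 had an unadjusted p under 0.05 (13.5% of all genes). The median change of the 13 was 0.18, beside -0.00 over all genes tested, and 11 of the 13 estimates were above 0. By complex the medians were 0.21 for complex I, 0.18 for mt-Cytb, 0.17 for complex IV and 0.39 for complex V. The 2 groups overlapped in all 13, where 0.0408% of all genes were higher and 0.034% lower without overlap.

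The 3 mRNAs with an unadjusted p under 0.05 were mt-Nd6, mt-Atp8 and mt-Nd4l. mt-Nd6 ranged from 411 through 652 to 1125 scaled TPM with water and from 924 through 1136 to 1547 with MOTS-c in casted mice. Every MOTS-c library stood above casted replicates 5 to 8, and the MOTS-c range overlapped that of replicates 1 to 4. The change was 0.86 ± 0.19 (limma adjusted p = 0.0826). mt-Atp8 ranged from 8381 through 10029.8 to 14431 with MOTS-c (0.91 ± 0.26, limma adjusted p = 0.179), and mt-Nd4l from 4858 through 5880.3 to 9160 (0.44 ± 0.21, limma adjusted p = 0.362). In mt-Atp8 as well, all MOTS-c libraries lay above casted replicates 5 to 8, and the lowest of them was close to the lowest of replicates 1 to 4.

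These values depended on the casted libraries they were set against. With only casted replicates 1 to 4 the changes were 0.32 for mt-Nd6, 0.07 for mt-Atp8 and -0.13 for mt-Nd4l. With only casted replicates 5 to 8 they were 1.4, 1.74 and 1.01. These subsets follow the split that the same 3 mRNAs showed, so the values are descriptions with no test. mt-Nd6 alone was called with limma's array quality weights (0.92, adjusted p = 0.033) and when casted replicate 1, 2 or 4 was left out.

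The other 10 mRNAs had estimates between -0.12 (mt-Atp6) and 0.23 (mt-Nd1) with MOTS-c. The largest of them was that of mt-Nd1, whose libraries ranged from 15947 through 18397 to 24145 with water and from 18455 through 21481 to 32849 with MOTS-c (0.23 ± 0.11, limma adjusted p = 0.374). The groups overlapped over most of their range. The estimates of mt-Co2 and mt-Atp6 were -0.05 and -0.12 as listed and 0.29 and 0.23 with their near-copies added, none of them called. That of mt-Nd3 was 0.00 as listed and 0.49 with its copy added (limma adjusted p = 0.197).

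Within libraries, 11 of the 14 ratios were higher past the threshold with MOTS-c than with water in casted mice. The log2 ratio of mt-Nd6 to mt-Cytb ranged from -4.61 through -4.40 to -4.10 in MOTS-c libraries, a difference of 0.68 from the casted group (exact permutation p = 0.00218, adjusted p = 0.00816). That of mt-Atp8 to mt-Atp6 ranged from 1.72 through 2.03 to 2.5, a difference of 1.02 (exact permutation adjusted p = 0.0295). With near-copies added it did not pass (0.68, exact permutation adjusted p = 0.106), and mt-Nd6 to mt-Co3 did (0.68, exact permutation adjusted p = 0.00693). The 3 that did not pass were mt-Nd6 to mt-Co3 (0.69, exact permutation adjusted p = 0.0545), mt-Nd6 to mt-Atp8 (-0.05) and mt-Nd4l to mt-Nd4 (0.28). Of the 11, 10 had mt-Nd6 as numerator. The difference for mt-Nd6 to mt-Cytb was 0.27 against casted replicates 1 to 4 alone and 1.09 against replicates 5 to 8 alone. That for mt-Atp8 to mt-Atp6, parts of 1 shared transcript, was 0.14 and 1.90 in the same order. These values are again descriptions.

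The remaining comparison sets casted mice with MOTS-c against uncasted mice, and shares the uncasted libraries with the casting comparison. Here 12 of 13 mRNAs were called lower, where 24.7% of all genes were, and the median change was -0.81 beside 0.01 over all genes. The 2 groups did not overlap in 6 of the 13 (mt-Nd1, mt-Nd2, mt-Nd3, mt-Nd6, mt-Co1 and mt-Cytb), against 8.15% of all genes that were lower without overlap. The changes ranged from -1.01 for mt-Nd3 to -0.57 for mt-Atp8, which was not called in the fit of all libraries (limma adjusted p = 0.0738). mt-Atp8 was called at -0.57 when casted replicate 8 was left out (limma adjusted p = 0.0387) and at -0.64 when MOTS-c replicate 5 was (limma adjusted p = 0.048). It was also called when only the 2 groups compared entered the fit (limma adjusted p = 0.000384). Casted replicate 8 is in neither group of this comparison and enters only through the spread that all groups share in the fit. The SD of mt-Atp8 was 3600.9 scaled TPM in the casted group, beside 1962.3 in the uncasted and 1858.5 in the MOTS-c group (n = 8). On deposited TPM the changes were smaller, from -0.58 for mt-Nd3 to -0.13 for mt-Atp8 (limma adjusted p = 0.639), with -0.38 for mt-Nd6. On scaled TPM mt-Nd6 changed by -0.81 ± 0.19 (limma adjusted p = 0.000867), close to the middle of the 13. By complex the medians were -0.81 for complex I, -0.70 for mt-Cytb, -0.83 for complex IV and -0.77 for complex V.

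In this comparison the 12 ratios with mt-Nd6 differed by -0.25 to 0.20, and 0 of them passed by the exact permutation test (1 of them at an unadjusted p under 0.05). The difference for mt-Nd6 to mt-Cytb was -0.12 (exact permutation adjusted p = 0.301) and for mt-Nd6 to mt-Nd5 -0.06. The ratio of mt-Atp8 to mt-Atp6 was higher by 0.41 (exact permutation adjusted p = 0.00907), from 1.64 ± 0.18 to 2.06 ± 0.29 (SD, n = 8). With near-copies added this ratio did not pass, and 0 of the 14 did.

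Nuclear genes that transcribe, cut and mature mitochondrial RNA or maintain mitochondrial DNA were described as a list of 54 genes, all of them tested. Polg, Twnk and Mgme1 are examples of the genes of DNA maintenance, so the counts are not of RNA genes alone. With casting, 17 were higher and 12 lower, 31.5% and 22.2% of the list, beside 28.7% and 27.7% of all genes tested. Their median was 0.03 beside 0.01 over all genes, and both shares of the list were near those of all genes. On the deposited TPM 46 were higher and 0 lower, where 62.2% and 7.43% of all genes were.

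Of the core transcription genes, Polrmt, the mitochondrial RNA polymerase, had 18.1 ± 1.63 scaled TPM in uncasted and 16.8 ± 3.15 in casted libraries (SD, n = 8), a change of -0.12 ± 0.10 (limma adjusted p = 0.339). Tfam, which packages mitochondrial DNA and starts transcription, had a change of -0.11 and the elongation factor Tefm one of 0.10, and neither was called. Of the pair that binds and stabilizes mitochondrial mRNAs, Slirp fell by 0.27 on the log2 scale (limma adjusted p = 0.0335) and Lrpprc was not called (-0.20, limma adjusted p = 0.0746). These values are small beside the median of -1.004 for the 13 mRNAs. Slirp overlaps Alkbh1 and Snw1 on the other strand.

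The 4 largest rises of the list were those of enzymes that cut or modify tRNAs. Nsun2, an RNA methyltransferase that also acts on tRNAs outside mitochondria, went from 31.6 ± 1.19 to 89 ± 19.6 scaled TPM, a change of 1.44 ± 0.12 (limma adjusted p = 9.29e-10). The tRNA methyltransferase Trmt1 rose by 1.09, Elac2, which cuts the 3′ end of tRNA precursors, by 0.88, and the pseudouridine synthase Pus1 by 0.75. The largest falls were those of the transcription termination factor family member Mterf2 (-0.70), of Fastkd3 (-0.57), of the DNA exonuclease Mgme1 (-0.56) and of the ribosomal RNA methyltransferase Nsun4 (-0.55). All 4 that rose most, and of the falls Mterf2, Fastkd3 and Mgme1, overlap an annotated gene on the other strand, as does Lrpprc, so their reads are uncertain without strand. With MOTS-c against water in casted mice, 0 of the 54 were called with limma, and their median was -0.09 beside -0.00 over all genes. There were 9 with an unadjusted p under 0.05. In casted mice with MOTS-c against uncasted mice, 11 were higher and 13 lower, where 26.0% and 24.7% of all genes were. Those called lower included Tfam (-0.24, limma adjusted p = 0.000895) and Lrpprc (-0.33, limma adjusted p = 0.00566). Polrmt (-0.20), Slirp (-0.18) and Tefm (-0.03) were not called in this comparison.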

How the data were processed

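Gene-level TPM of 24 gastrocnemius libraries, 8 per group, were used as deposited. The authors used FastQC, STAR, RSEM and DESeq2 with GRCm38.p6, per the submitters' processing notes. Versions, strand setting and the handling of reads shared by copies are not stated there. The deposited TPM keep no depth, so the precision of single values is unknown. Of 55487 gene identifiers, 55141 matched a symbol and length in the GENCODE annotation of GRCm38. Libraries were scaled by a trimmed mean of log ratios (30% of ratios and 5% of mean levels trimmed). The filter kept genes that reached 0.5 TPM in 8 or more libraries, which were tested on log2(scaled TPM + 1) with limma 3.58.1 in R 4.3.3, all 24 libraries in 1 fit, with Benjamini-Hochberg adjustment and a threshold of 0.05. Ratios of mRNAs within libraries were compared by two-sided exact permutation tests over 12870 splits, whose smallest possible p is 0.000155, adjusted over 42 tests. Near-copies were found with blastn 2.17.0. Python 3.11.15, numpy 2.4.6 and matplotlib 3.10.9 were used for the rest, and the fit was tested on simulated data.

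Named genes were all 13 mRNAs, the near-copy of highest TPM of each, Polrmt, Tfam, Tefm, Lrpprc, Slirp, and the 4 largest rises and falls of the nuclear list with casting. The rule also named the 6 highest tRNAs, but all 22 were at 0. The members and lists were chosen with earlier results of these data known. No 2 libraries held equal values for more than 1.34% of tested genes. Each library is labelled as a separate mouse, so p-values measure the spread between mice. Alternatives were other scalings, pseudocounts, no filter, near-copies added, a replicate block, array weights, subsets of casted libraries, only the groups compared, and each library left out.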

Additional observations from a re-analysis of the deposited data

Results flagged for a closer look

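Of 81 groups of 8 values examined, 8 held a library farther from the others than Dixon's criterion allows, and chance flags about 1 in 20 groups. In 7 of them the library was MOTS-c replicate 5, the highest of its group for mt-Co1 (46857 scaled TPM), mt-Cytb (34024), mt-Nd1 (32849), mt-Nd4 (31344), mt-Nd2 (26369), mt-Atp8 (14431) and mt-Co2 (4095). These 7 values come from 1 library and share its scale factor, so they are not independent of each other. The other was uncasted replicate 8, the lowest of its group in the log2 ratio of mt-Nd4l to mt-Nd4, at -2.12.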

How the results depend on the processing

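With casting, all 13 mRNAs were called lower under each of 12 alternatives and in each of 24 fits that left out 1 library, and the highest limma adjusted p under the 12 alternatives was 0.0184 (mt-Co2, deposited TPM). The count of nuclear genes called lower with casting was 12, and it was 0 on deposited TPM and 4 with mitochondrial genes left out of the total. The count called higher was 17, and it was 46 and 36 under these scalings and 8 with only casted replicates 1 to 4. Without 1 library these counts were 9 to 13 and 14 to 19. With MOTS-c in casted mice, 1 mRNA was called higher with array weights, 3 with only casted replicates 5 to 8, and 0 to 1 without 1 library. With only casted replicates 5 to 8, 10 nuclear genes were called lower and 1 higher. For casting with MOTS-c, 12 to 13 mRNAs were called lower without 1 library. The nuclear genes called lower went from 13 to 0 on deposited TPM and 5 with mitochondrial genes left out of the total, and those called higher from 11 to 40 and 29. Ratios past the threshold went from 10 with casting and 11 with MOTS-c to 0 and 0 with only casted replicates 1 to 4. Without 1 library they numbered 9 to 11 and 10 to 12. For casting with MOTS-c the 1 ratio became 0 with near-copies added and 0 with only casted replicates 1 to 4, and 1 to 2 passed without 1 library. This comparison uses no library of the casted group with water. With replicates 1 to 4 its difference for mt-Atp8 to mt-Atp6 stayed at 0.41, and only the adjustment over all ratios moved (exact permutation adjusted p from 0.00907 to 0.125). The subsets of casted libraries were formed with the values known, so their counts in the comparisons that use casted libraries with water restate that split and are no test. The cause of the other changes was not tested.

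Replicate numbers were not used as pairs in the main fit, and whether they pair the libraries was not settled. Of 24 same-numbered pairs, 6 correlated above 0.1 (range -0.245 to 0.371), and 7 libraries correlated best with their own number. Over all genes, the replicate block called 13 higher and 5 lower with MOTS-c in casted mice, against 2 and 1 in the main fit. With the replicate block, 13 mRNAs were lower with casting, 12 with casting and MOTS-c, and 0 were called with MOTS-c. The paired test of ratios passed 3 with casting, 11 with MOTS-c and 1 with both.

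Signs turned in 42 of the recomputed single values, and all were on the same side of the threshold before and after. With MOTS-c, mt-Co2 went to 0.29 and mt-Atp6 to 0.23 with near-copies. mt-Nd3 went to -0.076 on deposited TPM, -0.016 with mitochondrial genes left out of the total and -0.19 with casted replicates 1 to 4, and ranged from -0.069 to 0.066 without 1 library. With casted replicates 1 to 4, mt-Nd4l went to -0.13, mt-Nd5 to -0.0063, and the ratios of mt-Nd4l to mt-Nd4 to -0.21 and of mt-Nd6 to mt-Atp8 to 0.24. The latter ranged from -0.14 to 0.053 without 1 library. With casting, mt-Nd6 to mt-Atp8 went to 0.089 with casted replicates 5 to 8, and mt-Nd4l to mt-Nd4 to 0.024 and mt-Atp8 to mt-Atp6 to 0.27 with replicates 1 to 4. For casting with MOTS-c, ratios of mt-Nd6 to mt-Co1 and mt-Atp6 went to -0.092 and -0.22 with near-copies. Without 1 library, ratios of mt-Nd6 ranged from -0.015 to 0.072 for mt-Co1, -0.049 to 0.038 for mt-Nd2, -0.052 to 0.091 for mt-Co3, -0.0073 to 0.16 for mt-Nd4l and -0.11 to 0.0091 for mt-Nd5.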
